A study of Homo sapiens with 5 samples.

Results

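The regions described here are isolated SMAD2 binding regions that were listed in T47D cells only after palbociclib. Peak summits of 4 libraries on chromosomes 1 to 22 were pooled, and summits lying at most 200 bp apart were chained into regions. Members were chosen by called summits alone: a region was taken when both libraries from palbociclib-treated cells had a summit in it, neither library from cells without palbociclib had one, and no summit of the latter lay within 5 kb of either end. This rule gave 1572 of 112897 regions, or 1.39%. Because the rule itself uses presence and absence after the treatment, this count describes the lists and is no test of the treatment.

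T47D is an established human luminal breast cancer line that expresses the estrogen receptor. All 4 libraries came from cells given activin A at 50 ng/ml for 1.5 h and were precipitated with an antibody against SMAD2. In 2 of them (the palbociclib libraries) the cells also received palbociclib at 1 µM for 24 h, and in the other 2 (the activin libraries) they did not. A further untreated sample of genomic DNA served as the input for peak calling, and its signal was not analysed here. Every value here therefore refers to cells stimulated with activin, and no unstimulated ChIP library was analysed.

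Activin, a secreted factor related to TGF-β, acts through receptors that phosphorylate SMAD2 and SMAD3. These join SMAD4, enter the nucleus and gather at enhancers and promoters together with other transcription factors. Full-length SMAD2 is known for contacting DNA poorly by itself, so that SMAD4 and partner factors bring it to chromatin. Palbociclib inhibits the kinases CDK4 and CDK6, keeps the RB protein in its active, growth-suppressing form and holds estrogen receptor-positive breast cancer cells before S phase. The design asks whether this inhibitor alters where SMAD2 is found after activin.

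The activin lists held 50440 and 53069 summits on these chromosomes, and the palbociclib lists held 61533 and 63761. Each summit carries a score, read as the −log10 q of the authors' peak caller against the input, so a higher score is a firmer call within its own list. In replicate 1 of each group the median score was 9.43 (activin) and 9.39 (palbociclib), and in replicate 2 it was 8.34 and 8.38. Summit lists hold no read numbers, so sequencing depth is unknown, and a longer list may come from more binding, more reads or both, which cannot be told apart here. The lack of a summit means that no peak was called there, not that SMAD2 was absent.

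Regions of this kind were more numerous after palbociclib than in the reverse direction. Of 5968 regions found in both palbociclib lists and neither activin list (5.29% of all regions), 26.3% were isolated by over 5 kb. Of 2526 regions found in both activin lists and neither palbociclib list (2.24%), 317 were isolated from palbociclib summits by the same distance, or 12.5% of that set and 0.281% of all regions. The isolated palbociclib-only regions thus outnumbered the isolated activin-only regions 4.96-fold. The palbociclib lists were the longer ones, and with every list trimmed to the same length the counts were 990 and 458. The order turned when an activin library was left out, with 3153 against 3551 regions without activin replicate 1 and 2928 against 3038 without activin replicate 2. It was 5960 against 857 without palbociclib replicate 1 and 6454 against 696 without palbociclib replicate 2. A group reduced to 1 library is asked for presence in 1 list instead of 2, which raises its count. With 2 against 2 libraries an exact permutation test cannot pass a threshold of 0.05, and none was applied to counts that the rule itself fixes.

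The isolated regions were mostly weak. The score at the 1572 regions ranged from 1.41 to 38.9 with a median of 6.93 in palbociclib replicate 1, and from 1.46 to 31.6 with a median of 6.11 in palbociclib replicate 2. Both medians lay below those of the whole lists, and the best-placed summit ranked 11779 in replicate 1 and 12937 in replicate 2. Each list was divided into 10 equal classes by score, from 1 (strongest) to 10. Equal scores were ordered by chromosome and position, so summits of the same score at a class limit can fall in neighbouring classes. In both lists 875 regions (55.7%) lay in the weaker 5 classes, 531 lay in them in a single list, and 166 (10.6%) were in the stronger 5 classes of both lists. The share in the weaker classes was 59.0% for palbociclib-only regions near an activin summit and 66.6% for isolated activin-only regions in their own lists, so weakness was no trait of this set alone. Without palbociclib replicates 1 and 2 it was 87.0% and 86.2%, where a single list had to hold the region. No region was in class 1 of either list, and 1 region reached class 2 in a single list.

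Among all 36844 regions with a summit in both palbociclib lists, the share that was isolated and palbociclib-only rose up to class 8 of the weaker of the 2 classes. It was 0 of 5163 in class 1, with an interval of 0 to 0.071% (95% exact Clopper-Pearson interval, as for all intervals given here). It was 0.111% (0.036 to 0.259) in class 3, 3.26% (2.69 to 3.91) in class 5 and 8.69% (7.70 to 9.76) in class 7. In classes 8, 9 and 10 it was 11.1%, 11.5% and 10.6%, and these 3 intervals overlap. These intervals treat regions as independent and cover counting error only. The isolated ones thus made up a similar part of these regions in the weakest 3 classes, which was not tested. In the strongest classes their part was far smaller. The rule favours weak calls by itself, because it asks for no activin summit. Of all palbociclib summits, a mean of 82.9% in classes 1 to 4 had a summit of an activin library within 200 bp, against 17.1% in classes 9 and 10.

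**Figure D1:**
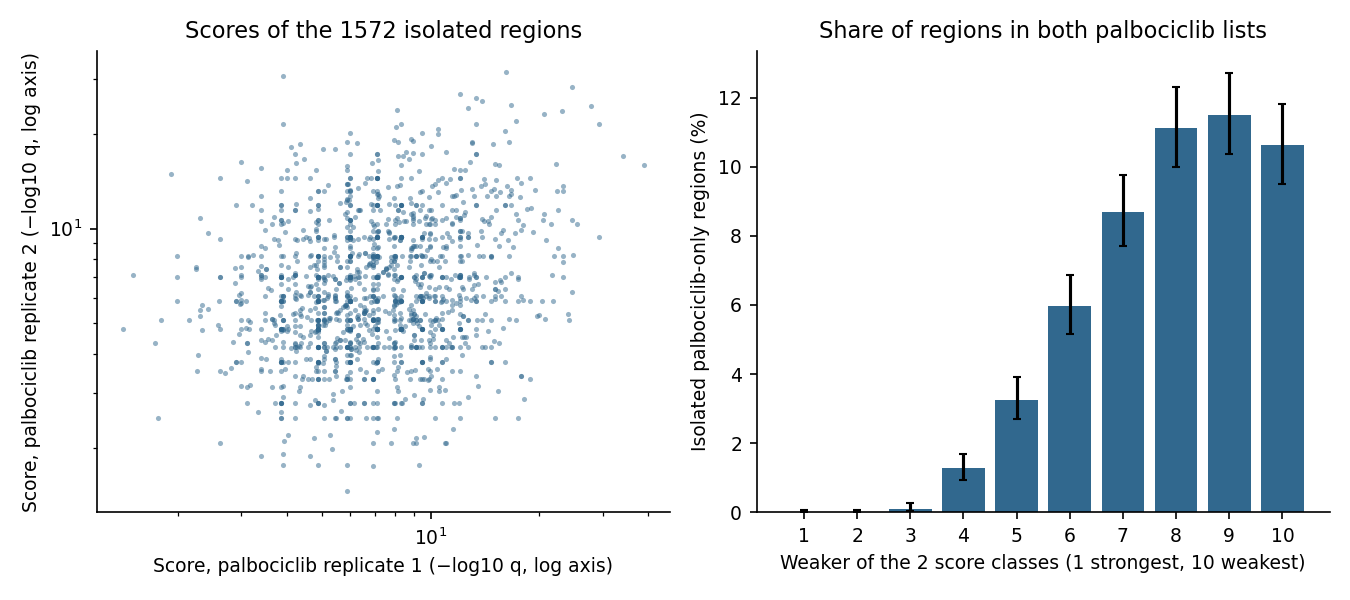
Left, the score of each of the 1572 isolated palbociclib-only regions in palbociclib replicate 1 (x) and replicate 2 (y), in −log10 q on log axes. Right, the percentage of regions with a summit in both palbociclib lists that were isolated and palbociclib-only, by the weaker of the 2 score classes, with 95% exact intervals; the share is 0 in class 1 and 11.1% in class 8.

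The scores of the 2 replicates were only loosely related across the isolated regions. Spearman's coefficient was 0.21 across the 1572 regions, against 0.34 across the 4396 palbociclib-only regions with an activin summit within 5 kb and 0.29 across the 317 isolated activin-only regions. These coefficients are across regions, which share their libraries and are no replicates. The classes in the 2 lists were at most 1 apart for 734 regions (46.7%) and at least 4 apart for 244 (15.5%). Many regions carried the same few scores. In replicate 1 the 5 most common scores (5.98, 7.11, 4.89, 3.86 and 8.28) covered 307 regions, or 19.5%, and in replicate 2 the 5 most common (4.80, 7, 5.89, 4.21 and 8.17) covered 335, or 21.3%. The score 5.98 alone stood at 96 regions, so order among regions of such scores cannot be read from the list. Some of these 96 regions were in class 7 and others in class 8, by chromosome and position alone. Class counts and class gaps between the lists partly carry this order.

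Summit positions within a region can differ little, because chaining at 200 bp is part of the rule. A single summit from each list made up 1559 of the 1572 regions (99.2%), and the strongest summits of the 2 lists lay a median of 49.0 bp apart, within 50 bp in 50.5% of regions. Palbociclib-only regions near an activin summit had 68.0 bp and 39.2%, and isolated activin-only regions 46.0 bp and 53.6%. These differences over regions were not tested.

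The strongest of the isolated regions, by the worse of their 2 ranks, lay on chromosome 6 at chr6:112194627-112194687 (hg19, as all positions here). It scored 27.7 and 24.5 in palbociclib replicates 1 and 2 (ranks 14776 and 15243), and its nearest activin summit lay 165 kb away. The nearest region shared by all 4 libraries was 214 kb off, where activin replicates scored 61.9 and 88.5 and palbociclib replicates 103 and 118. This leading region thus had no other SMAD2 summit of any list within 5 kb.

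The region ranked next, chr6:147501201-147501203, scored 24.6 and 28.3, with the 2 summits 2 bp apart. Its nearest activin summit was 12.4 kb away and belonged to a weak region of all 4 libraries, where activin replicates scored 4.51 and 11.1 and palbociclib replicates 16.5 and 8.17. Here the region seen only after palbociclib scored higher than its shared neighbour in both palbociclib lists. The same held for chr10:44968705-44968744, which scored 23.1 and 23.6 and had a shared neighbour 19.4 kb away at 7.94 and 12 in the palbociclib lists. It lay close to the limit of isolation, 6.12 kb from the nearest activin summit.

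On chromosome 1, chr1:110753679-110753690 scored 29.3 and 21.6, 25.05 kb from the nearest activin summit. On chromosome 11, chr11:131566681-131566732 scored 20.6 and 23.1, with activin 58.0 kb and a shared region 201 kb away. These 5 regions were the only ones in class 3 or better in both lists.

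The remaining 7 of the 12 best-ranked regions were in class 2 or 3 of a single list and class 4 of the other. The highest score of all isolated regions in replicate 1 was at chr4:108980006-108980061, with 38.9 there and 15.9 in replicate 2. The highest in replicate 2 was at chr12:48690593-48690600, with 31.6 there and 16.2 in replicate 1. In both cases the other replicate ranked the same region in a lower class. The region chr8:106783013-106783018 scored 34.1 and 17.0 and had its nearest shared region 451 kb away. The region chr5:83387442-83387465 scored 16.5 and 18.8 at 369 kb from a shared region. The others were chr3:169272721-169272728 with 22.3 and 16.1, chr4:2459671-2459696 with 17.2 and 22.1, and chr17:39480585-39480667 with 16.7 and 24.8. Among the 12, the distance to the nearest activin summit ran from 5.26 kb on chromosome 4 to 165 kb on chromosome 6, so strong and weak isolation both occurred.

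Most of the isolated regions lay well beyond the limit from activin summits. The distance to the nearest activin summit had a median of 23.2 kb and quartiles of 10.7 and 53.7 kb. It was 5 to 10 kb for 361 regions (22.96%), 10 to 20 kb for 344 (21.9%), 20 to 50 kb for 451 (28.7%), 50 to 100 kb for 233 (14.8%) and over 100 kb up to 500 kb for 175 (11.1%). Only 8 regions were over 500 kb away. The limit of 5 kb cut through a continuous range. Just inside lay chr3:132401830-132401874 at 5012 bp (scores 4.89 and 4.80), chr12:122186942-122187011 at 5028 bp (5.08 and 7.66) and chr19:37856592-37856755 at 5035 bp (7.11 and 3.77). Just outside lay chr9:131679652-131679660 at 4996 bp (5.24 and 7.26), and chr1:1479330-1479384 (3.86 and 4.80) and chr17:59494245-59494272 (12.1 and 7.20), both at 4991 bp. Of these 6 regions, only the one on chromosome 17 reached class 5 in a list, in replicate 1, and the other 5 lay in classes 6 to 9 of both lists.

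The region farthest from activin was chr14:19066334-19066350, 1638 kb from the nearest activin summit, with scores of 10.3 and 10.4. Next came chr16:59561343-59561358 at 793 kb (10.3 and 6.11) and chr4:46596836-46596900 at 725 kb (5.98 and 7). The regions chr9:28927927-28927949 at 693 kb (8.28 and 7) and chr11:127232998-127233083 at 678 kb (10.5 and 7.58) completed the 5 farthest. None of these 5 had a region of all 4 libraries within 500 kb, and none had another summit of either palbociclib list within 5 kb. The region on chromosome 14 was in class 5 of both lists, those on chromosomes 16 and 11 in class 5 of replicate 1 only, and those on chromosomes 4 and 9 in the weaker 5 classes of both lists.

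The nearest region shared by all 4 libraries was farther off than the nearest activin summit for most isolated regions. The definitions largely set this direction. A shared region holds activin summits, so it can be nearer only where a palbociclib summit forms its edge. The median distance to the nearest shared region was 41.8 kb, with quartiles of 16.8 and 107 kb. A shared region lay within 10 kb of 199 regions (12.7%) and over 100 kb from 414 (26.3%). For 284 regions (18.1%) the nearest activin summit itself marked the edge of the nearest shared region. Cases where it lay inside that region, behind a palbociclib summit at the edge, are not in this count. The shortest distance to a shared region was 4.92 kb, because the edge of a shared region may be a palbociclib summit. Isolated activin-only regions had a shorter median distance of 28.4 kb, with 22.4% over 100 kb away. Isolated regions of a single palbociclib list had 40.0 kb in replicate 1 (4876 regions) and 34.3 kb in replicate 2 (4378 regions). The distance was thus close to that of regions found in both lists for replicate 1 alone, and shorter for replicate 2 alone. Scores were lower in the regions of a single list. The median score was 5.11 and 4.80 in the regions of a single list, against 6.93 and 6.11 in the regions found in both.

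**Figure D2:**
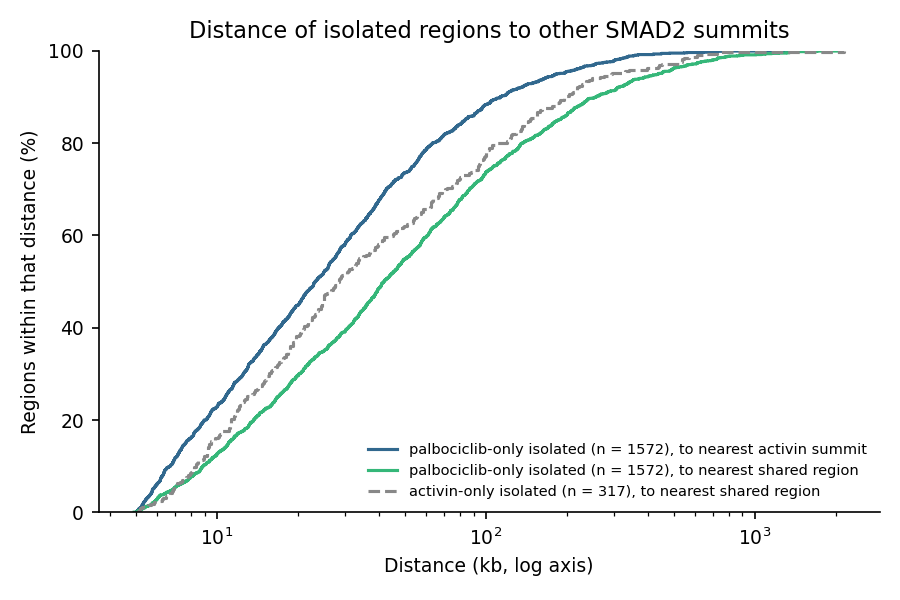
Cumulative percentage of isolated regions (y) within a given distance in kb (x, log axis). Lines show the 1572 palbociclib-only regions to the nearest activin summit (blue, median 23.2 kb) and to the nearest region of all 4 libraries (green, median 41.8 kb), and the 317 activin-only regions to the nearest region of all 4 libraries (grey, dashed, median 28.4 kb).

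The 5 regions farthest from a shared region lay on 4 chromosomes. The longest distance was 2037 kb, at chr11:50114933-50115073, which scored 5.48 and 4.21. The region on chromosome 14 at 19066334 followed with 1708 kb. Next, chr9:11065035-11065059 scored 13.0 and 18.8 at 1641 kb from a shared region, yet an activin summit not found in all lists lay 48.9 kb away. The other region of that stretch, chr9:11314157-11314243, scored 2.62 and 14.5, and chr3:89553250-89553254 scored 8.28 and 9.38 at 1354 kb. The region on chromosome 9 at 11065035 was in classes 4 and 3, which shows that remote regions were not always among the weakest.

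The shared regions nearest to the isolated regions showed no shift in rank beyond the spread between replicates. This measure was not used by the rule. All 22900 shared regions were placed by score within each library as percentiles, and the 1412 shared regions that were nearest to an isolated palbociclib-only region were picked out. Their median percentile was 52.3 and 50.6 with activin alone and 53.3 and 50.5 with palbociclib, so the groups overlapped. The means were 51.5 ± 1.2 and 51.9 ± 2.0 (SD, n = 2 each), a difference of 0.424 percentile points with p = 1 in the exact two-sided permutation test. Of these shared regions, 289 (20.5%) had a higher percentile in both palbociclib libraries than in both activin libraries, against 20.3% of all shared regions. Near isolated activin-only regions, 302 shared regions had median percentiles of 54.8 and 56.6 with activin and 53.1 and 53.3 with palbociclib. The groups were separate there, and the exact two-sided permutation test returned its smallest possible value for 2 against 2 libraries, p = 0.333.

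The isolated regions mostly stood apart from each other. The median distance from an isolated region to the next was 478 kb. Another isolated region lay within 100 kb of 276 (17.6%), within 50 kb of 181 (11.5%) and within 10 kb of 92 (5.85%). The first of these shares moved with the number of regions called: it was 11.2% at equal list lengths, 34.0% when activin replicate 1 was left out, 31.7% when activin replicate 2 was, 50.02% when palbociclib replicate 1 was and 47.9% when palbociclib replicate 2 was. Chained at gaps of at most 50 kb, these 181 regions formed 77 groups of 2 and 9 groups of 3, and the other 1391 stood alone. Of the 86 groups, 40 spanned at most 10 kb. Isolated activin-only regions had another of their kind within 100 kb in 11.4%. That set is smaller, which by itself makes close neighbours rarer, so the 2 shares cannot be read as a difference in clustering.

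The tightest group of 3 spanned 1.36 kb on chromosome 17. Its regions chr17:29936622-29936684, chr17:29937323-29937324 and chr17:29937874-29937983 scored 3.39, 3.90 and 5.60 in palbociclib replicate 1 and 3.87, 10.4 and 5.12 in replicate 2. They lay 5.45 to 6.70 kb from the nearest activin summit, and a weak region of all 4 libraries began at 29928264. Counting within 5 kb of the region at 29936622, there were 6 further summits in replicate 1 and 10 in replicate 2, or 16 in all, the most around any isolated region. This place was a local cluster of weak palbociclib summits beside a weak shared region.

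Similar groups lay on chromosomes 1, 8 and 14. The group from 46491790 to 46493975 on chromosome 1 spanned 2.19 kb, with scores of 4.81, 8.28 and 7.11 in replicate 1 and 10.5, 9.38 and 4.21 in replicate 2. The group from 129115888 to 129118946 on chromosome 8 spanned 3.06 kb, with scores of 5.09, 5.88 and 5.88, and 5.65, 10.2 and 4.94. All 6 of these regions lay in classes 6 to 9 in replicate 1. In replicate 2, the region starting at 129117056 on chromosome 8 was in class 5 and its 2 companions in class 8, and the regions starting at 46491790 and 46493254 on chromosome 1 were in class 5 too.

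A further group on chromosome 1, from 110752544 to 110757282, spanned 4.74 kb and held the region at 110753679 already described. Its 2 companions scored 5.84 and 5.98 in replicate 1 and 5.74 and 7 in replicate 2. This group combined a region of class 3 with weak ones. The group from 73429041 to 73434103 on chromosome 14 spanned 5.06 kb and was the weakest, with scores of 2.70, 2.31 and 4.21, and 3.47, 5.28 and 4.20. Apart from such groups, 1195 of the isolated regions (76.0%) had no other summit of any list within 5 kb of their ends.

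The surroundings of the isolated regions held as many shared SMAD2 regions as those of the other isolated sets, and fewer than those of palbociclib-only regions near an activin summit. The number of regions of all 4 libraries within 500 kb on either side had a median of 9, with quartiles of 4 and 15. It was 18.5 for palbociclib-only regions near an activin summit, 14 for the shared regions themselves and 9 for isolated activin-only regions. Isolated regions of a single palbociclib list also had 9. The requirement of 5 kb without activin summits favours sparse places by itself, and the 4 isolated sets had the same median. In sparse places, with at most 3 shared regions, lay 315 of the isolated palbociclib-only regions (20.04%), among them 60 (3.82%) with none. In dense places, with 20 or more, lay 262 (16.7%). The isolated regions made up 3.69% of all regions in the sparsest places, then 2.16% and 1.28%, and 0.602% in the densest. Their median score changed little across these classes, from 7.11 in the sparsest to 6.34 in the densest in replicate 1, and from 7 to 6.11 in replicate 2.

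**Figure D3:**
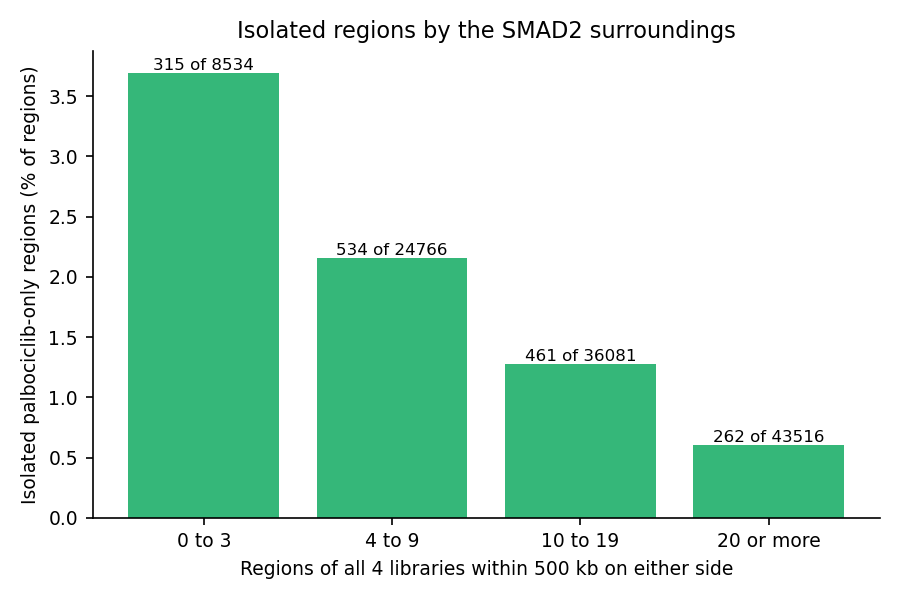
Percentage of all regions that were isolated and palbociclib-only (y), by the number of regions of all 4 libraries within 500 kb on either side (x). Labels give isolated regions of all regions; the share falls from 3.69% with 0 to 3 shared regions to 0.602% with 20 or more.

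Gene content was compared by whole chromosome. No hg19 annotation or genome was used here, so genes beside single regions are not named and their sequences are not shown. Protein-coding genes per Mb are the number of such genes of each chromosome in the RefSeq table of GRCh38.p14, divided by the span between its outermost regions in these lists. No position was carried between builds. Chromosome 18, the poorest in genes (3.47 per Mb), had a share of 1.50% (0.93 to 2.28), close to that of all chromosomes. On chromosome 13 (3.52 genes per Mb), 46 of 1989 regions were isolated and palbociclib-only, or 2.31% (1.70 to 3.07). On chromosome 4 (4.03 genes per Mb) the share was 1.95% (1.55 to 2.41). On gene-rich chromosome 19 (24.7 genes per Mb) it was 0.693% (0.508 to 0.924), from the same number of 46 regions among 6633. These intervals treat regions as independent and cover counting error only. Isolated activin-only regions numbered 10 among 1402 regions on chromosome 18 and 7 among 1989 on chromosome 13. They numbered 26 among 4262 on chromosome 4 and 13 among 6633 on chromosome 19, and the 2 sets were not compared by a test.

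For the isolated palbociclib-only regions, the relation with gene content went the opposite way per Mb of chromosome. Isolated regions were densest on chromosomes 22 (0.879 per Mb), 19 (0.782) and 17 (0.778) and sparsest on chromosome 18 (0.270). Across the 22 chromosomes, genes per Mb went with the share of regions at a Pearson coefficient of −0.78 and a Spearman coefficient of −0.90, and with isolated regions per Mb at 0.73 and 0.76. Without chromosomes 19 and 17, the 2 farthest from the median gene density, these became −0.76 and −0.86, and 0.79 and 0.69. All regions per Mb followed gene density more closely, at 0.96 and 0.95. Values per Mb share their span as denominator and the chromosomes share the same 4 libraries, so these coefficients are a description without a test. The requirement of 5 kb without activin summits takes fewer regions where summits are dense. The falling share therefore cannot be read as a preference of these regions for gene-poor chromosomes. Isolated regions were thus more frequent per Mb on gene-rich chromosomes, but rose less there than SMAD2 regions as a whole.

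**Figure D4:**
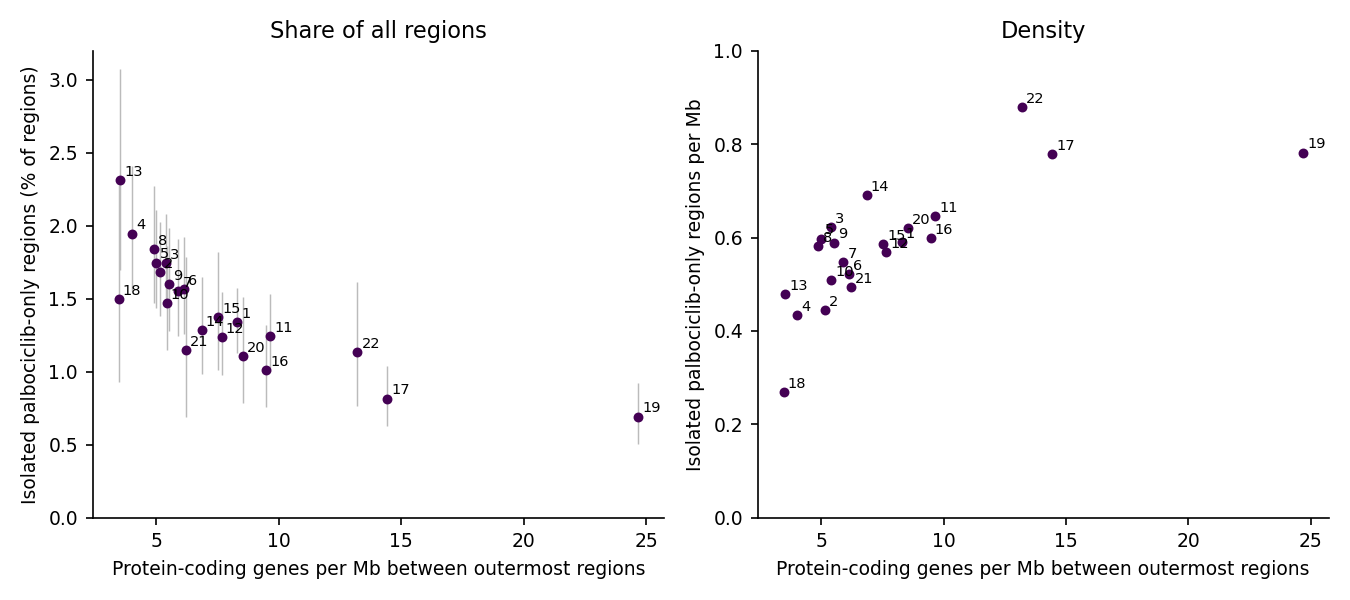
Isolated palbociclib-only regions of each of 22 chromosomes (numbered points) against protein-coding genes per Mb between the outermost regions (x). Left, their percentage of all regions with 95% exact intervals, from 2.31% on chromosome 13 to 0.693% on chromosome 19; right, their number per Mb, from 0.270 on chromosome 18 to 0.879 on chromosome 22.

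Isolated palbociclib summits were found again more often in a palbociclib library than in an activin library when neither had been used to choose them. For this, summits of 1 palbociclib library with no summit of 1 activin library within 5 kb were taken. The remaining 2 libraries were then searched within 200 bp. The isolated palbociclib-only regions had been chosen by presence and absence of summits in all 4 of these lists. The lookup therefore partly recounts the calls that chose those regions, and is no independent support for them. Of 9744 summits of palbociclib replicate 1 isolated from activin replicate 1, 30.3% (29.3 to 31.2) were found in palbociclib replicate 2 and 17.6% (16.8 to 18.4) in activin replicate 2. Of 9003 summits of palbociclib replicate 2 isolated from activin replicate 2, 35.2% (34.2 to 36.2) were found in palbociclib replicate 1 and 21.9% (21.1 to 22.8) in activin replicate 1. Over the 4 possible choices the means were 32.5% ± 2.1 and 19.9% ± 2.5 (SD, n = 4), a difference of 12.6 ± 1.3 percentage points that lay between 10.7 and 13.7. The 4 choices share libraries and count the overlap of the 2 palbociclib lists from either list. They are no replicates, so the SD describes their spread only and no p is given.

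The reverse choice did not mirror this. Activin summits isolated from a palbociclib library were found in the remaining activin library at 16.4% ± 1.7 and in the remaining palbociclib library at 20.4% ± 4.3, a difference of −4.00 ± 2.67 percentage points (SD, n = 4). With lists of equal length the difference for isolated palbociclib summits was 8.09 ± 2.71 points, from 4.40 to 10.8, and that for isolated activin summits was −0.784 ± 2.709, from −4.43 to 2.00. The excess on the palbociclib side thus became smaller at equal length and kept its direction in the 4 choices, which overlap and are no replicates. Both sides rest on the same 4 lists as the counts of isolated regions, and the difference between the 2 sides was not tested.

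The excess was wider in the stronger 6 classes than in the weaker 4. In score classes 1 to 4, isolated palbociclib summits were found in the other palbociclib library at 72.4% ± 2.7 and in the other activin library at 53.0% ± 4.2, a difference of 19.5 ± 5.4 points (SD, n = 4). All palbociclib summits of these classes, isolated or not, were found at 85.0% and 82.9%, a difference of 2.06 points. In classes 5 and 6 the difference was 17.2 ± 1.9 points (14.4 to 18.6) for isolated summits and 12.2 for all, so classes 1 to 4, at 13.0 to 25.9, were not set apart from them. In classes 7 and 8 it was 11.7 ± 0.6 and 11.4, and in classes 9 and 10 it was 8.76 ± 1.26 and 9.75. For weak summits, isolation from 1 activin library therefore went with no wider excess than weak summits show in general. In classes 7 to 10 this excess thus differed little between isolated summits and all summits, but isolated ones were found less often in either library. In classes 7 and 8 they were found at 27.8% (palbociclib) and 16.1% (activin), against 35.7% and 24.4% for all summits. In classes 9 and 10 it was 19.1% and 10.3%, against 26.8% and 17.1%. Those 4 classes held 279, 237, 213 and 157 of the 1572 regions in replicate 1, and 228, 268, 218 and 172 in replicate 2. By the better of the 2 classes of a region they held 250, 183, 94 and 24, so the 1572 regions lay on both sides of this divide. Even in classes 1 to 4, between 47.7% and 57.4% of isolated summits had a summit in the activin library that had not been used for the choice.

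**Figure D5:**
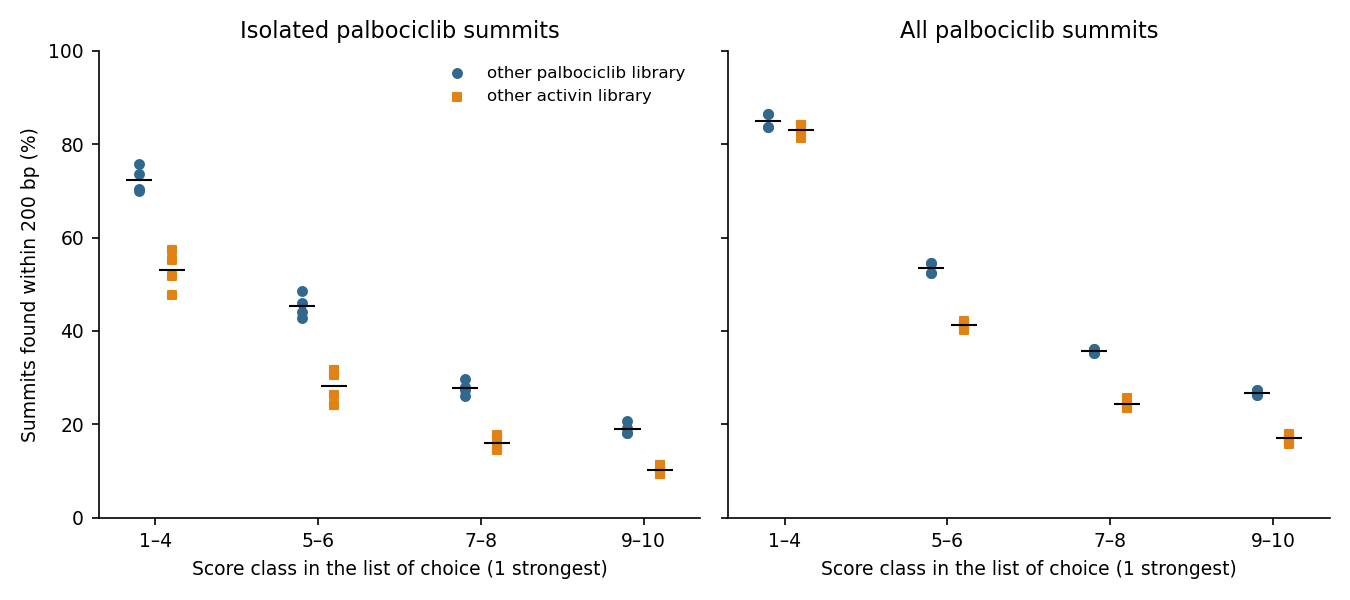
Percentage of palbociclib summits found within 200 bp (y) in the other palbociclib library (circles) and the other activin library (squares), by score class (x), for summits isolated by over 5 kb from 1 activin library (left) and for all summits (right). Points are the 4 choices of libraries and lines their means; in classes 1 to 4 the means are 72.4% and 53.0% on the left, and 85.0% and 82.9% on the right.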

How the data were processed

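SMAD2 ChIP-seq was analysed in 4 libraries, 2 per group. The submitters' processing notes name hg19, MACS2 2.0.9, Bowtie 1.1.0 and Picard; how and in which order they were applied is not given in the sources used here. The deposited files list the peak summits of each library on its own, with a score read as the −log10 q of the authors' peak caller, because the lowest score of 1.31 lies just above the 1.30 that a q of 0.05 gives. Scores were used within their own list. Positions were made 1-based. Presence, isolation, score classes and distances were computed with Python 3.11.15, scipy 1.17.1, pandas 2.3.3 and numpy 2.4.6; figures used matplotlib 3.10.9. The code was tested on simulated data with planted regions. Read depth is unknown, and replicates may be technical, since the labels do not say whether they came from separate cultures. The members, gene lists and alternatives were chosen with earlier results of these data known. Named regions were the 12 best by worse rank, the 5 farthest from activin, the 5 farthest from shared regions, the 5 largest groups (shorter span first) and the 3 on each side of the limit. Gene distances, GC content, repeats and motifs, planned for an hg19 reference, were not run, so no list result exists. Alternatives were minimum scores, equal list lengths, gaps, isolation distances, chromosome X, leaving out each library and a replicate block.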

Additional observations from a re-analysis of the deposited data

Results flagged for a closer look

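Chromosome X lay outside the rule, which covers chromosomes 1 to 22. By the same rule it held 54 isolated palbociclib-only regions among 2424 regions, and 10 isolated activin-only regions. Chromosome Y, outside the rule as well, held 3 isolated palbociclib-only regions among 18 regions and 0 isolated activin-only regions. On chromosomes 1 to 22 the rule took 1572 of 112897 regions (1.39%), and on chromosome 13 alone 46 of 1989. Neither chromosome X nor chromosome Y was tested against these values, and no control list was used here.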

How the results depend on the processing

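The number of isolated palbociclib-only regions (1572) was 990 at equal list lengths, 867 with isolation over 20 kb and 2928 to 6454 without each library. Leaving out a library asks for presence or absence in fewer lists, and all 4 of these counts were higher. It stayed within 1.5 times under 7 other alternatives. A score of at least 5 gave 1399 regions, of which only 834 of the 1572 remained and 565 were others; equal lengths kept 956. Trimming to equal lengths keeps activin scores down to 1.34 and 2.90 and palbociclib scores down to 4.87 and 4.80. With the replicate block, which isolates each palbociclib library from its same-numbered activin library alone, the mean count was 9357. Same-numbered libraries did not deviate together (correlation of log2 score deviations −0.03 over 22900 shared regions). The recovery difference (12.6 points) was 8.09 at equal lengths, 9.66 with matches within 100 bp, 14.9 within 500 bp and 13.0 with the replicate block, and kept its direction in all 6 alternatives. Leaving out a library allows no such lookup. The share in the weaker classes of both lists (55.7%) was 70.2% at equal lengths and 45.6% to 87.0% without each library. The median distance to shared regions (41.8 kb) was 57.6 kb with isolation over 10 kb and 32.4 to 38.4 kb without each library. The share with another isolated region within 100 kb (17.6%) was 11.2% at equal lengths and 31.7% to 50.0% without each library.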

Other observations

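The isolated regions differed with the number of other palbociclib summits within 5 kb. The 1195 regions with none lay a median of 27.6 kb from activin and 51.0 kb from a shared region, with median scores of 7.11 and 6.11 in palbociclib replicates 1 and 2. The 281 regions with 1 or 2 others lay 15.9 and 28.6 kb away, with scores of 6.76 and 6.11. The 96 regions with 3 or more others lay 11.7 and 17.7 kb away, with scores of 5.67 and 5.41. Regions in such company were thus nearer to other summits and scored lower at the median than the lone ones, a difference over regions that was not tested.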
